A study of Mus musculus with 6 samples.

Results

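The genes described here are 40 genes of JAK-STAT signalling in DC2.4 cells, chosen by gene symbol: the 4 Janus kinases, 6 STAT transcription factors, 11 negative regulators of the pathway and 19 cytokine receptor chains. The list was drawn up with earlier results of these data known. All 40 symbols were found among the 31205 genes of the read count table. At least 1 read was counted for 39 of them, and 35 passed the filter on low counts and were tested. DC2.4 is a mouse dendritic cell line, made by transforming GM-CSF-transduced bone marrow cells with the myc and raf oncogenes. The study compared it with a derivative carrying a knockout of PD-L1, which engages the PD-1 checkpoint receptor on T cells. There were 3 libraries labelled Control and 3 labelled PD-L1 knockout, and the labels name no drug treatment, passage or clone for either. The title of the series places it in work on PD-L1 and ferroptosis, an iron-dependent form of cell death, of dendritic cells under chemotherapy. Whether the 3 libraries of a group are separate cultures is not stated, so the p-values cover library-to-library spread that may be technical only.

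Cytokine receptors of this family have no enzyme activity of their own. A bound cytokine brings receptor chains together, the Janus kinases attached to those chains phosphorylate each other and the receptor tails, and STAT proteins dock there, are phosphorylated and move to the nucleus as dimers. SOCS proteins and CISH are induced by STATs and shut the receptor down, phosphatases remove the phosphate groups, and PIAS proteins restrain STATs in the nucleus. In dendritic cells the pathway carries signals for GM-CSF, interleukin 10, interferons and the interleukin 4 and 6 families, which bear on survival, maturation and antigen presentation.

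The libraries held between 10918498 and 23250065 counts. Cd274, the gene of PD-L1, did not fall with the knockout label: it had 4.65, 5.87 and 6.83 CPM (counts scaled to equal library size) in controls 1, 2 and 3, against 7.70, 5.44 and 8.11 in knockout libraries 1, 2 and 3. An edit that leaves the transcript in place is invisible to a gene-level count, so Cd274 cannot check the labels, on which all directions rest. Of 13 dendritic cell markers, 7 were tested: Cd80 was higher (log2 fold change 0.53, adjusted p = 0.0318), Zbtb46 lower (-0.72, adjusted p = 0.049), and Cd74, Itgax, Irf8, Irf4 and Cd86 were not called. The other 6, Flt3, Clec9a, Xcr1, Batf3, H2-Aa and H2-Ab1, stayed under 1 CPM in every library. Macrophage and monocyte markers had 4 of 8 tested genes lower (Lyz2, Csf1r, Fcgr1 and Ly6c2) and 0 higher in the libraries labelled knockout. Not called were Cd68 (log2 fold change 0.04), Cd14 (0.35), Adgre1 (-0.09) and Itgam (-0.33). Over all genes tested, 13.5% were called lower and 11.8% higher. Markers of T, NK and B cells, of neutrophils and mast cells, and of epithelial and endothelial cells summed to less than 1 CPM per list in every library. Stromal markers summed to 217 CPM in control library 2, through Col1a1 (132 CPM) and Fn1 (81.9), and to at most 0.537 in any other library. The rest of that list was low in control library 2: Col1a2 at 1.30 CPM, Col3a1 at 0.59, Pdgfrb at 0.41 and Dcn at 0. Control library 2 is therefore given apart where a result depends on it.

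The JAK-STAT genes called in the reported fit were all lower in the libraries labelled knockout. Of the 35 tested, 10 were lower and 0 higher by edgeR's quasi-likelihood test at an adjusted p under 0.05. Lower were the kinases Jak2, Jak3 and Tyk2, the STATs Stat2, Stat5a and Stat5b, and the receptor chains Il10ra, Il13ra1, Csf2ra and Csf3r. Over all 11453 genes tested, 25.3% were called, 13.5% lower and 11.8% higher, against 28.6% and none of the members. An unadjusted p under 0.05 was reached by 17 members, and by 40.9% of all genes. Negative log2 fold changes (knockout minus control) were found for 27 of the 35, and for 49.0% of all genes. The median log2 fold change of the members was -0.31, beside 0.01 for all genes. Every knockout library lay below every control library for 15 members (21.8% of all genes) and above it for 2 (21.1% of all genes). Because the list was drawn up with earlier results of these data known, the comparisons with all genes are descriptions only. In bulk RNA, fewer cells expressing a gene and less RNA per cell cannot be told apart.

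**Figure D1:**
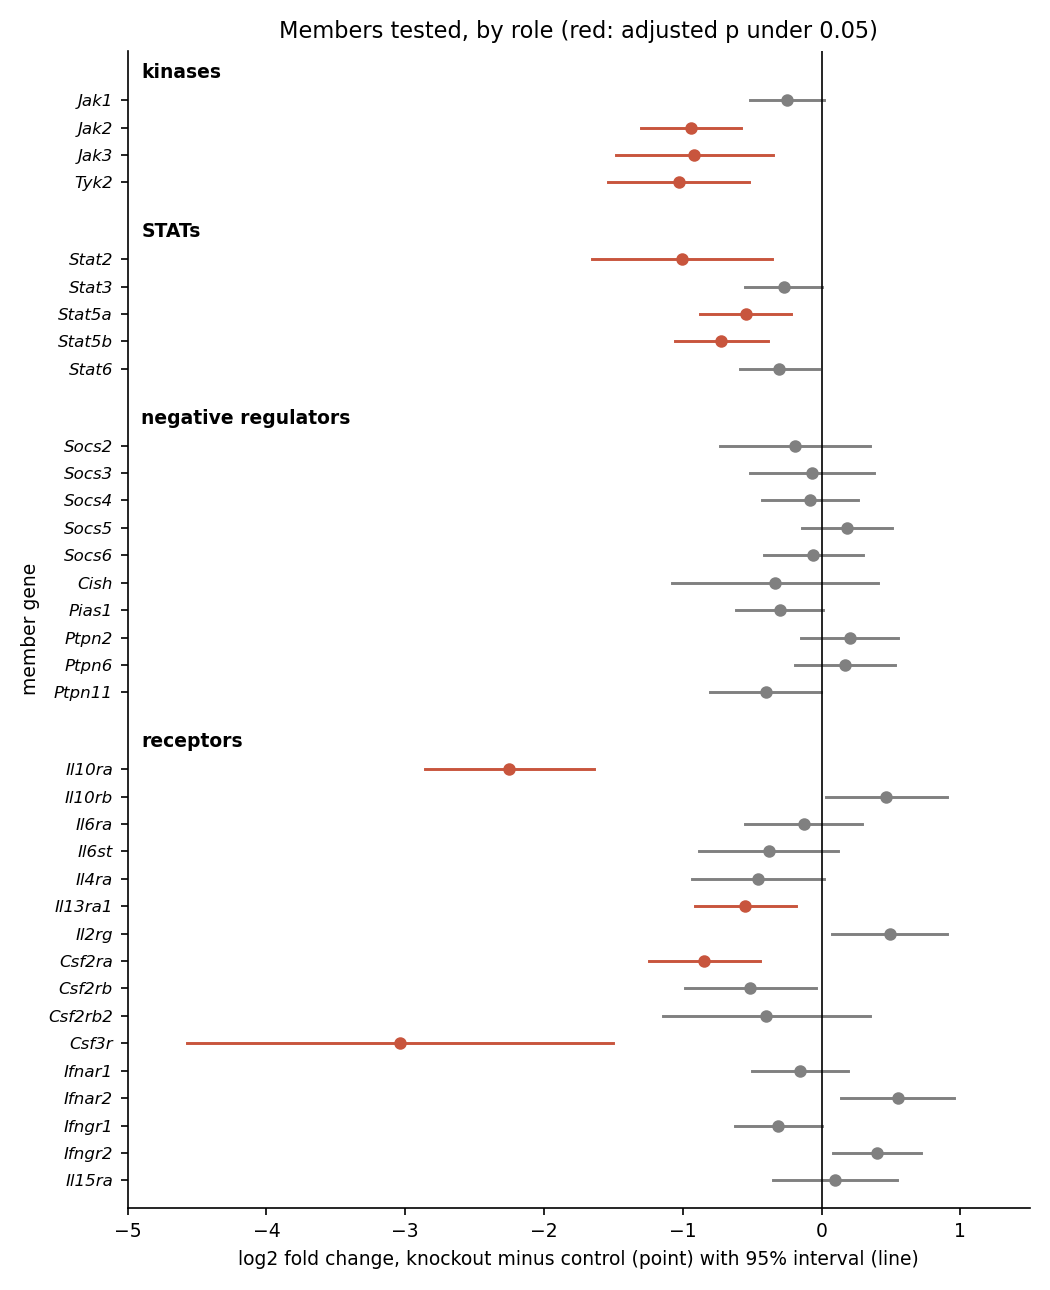
Log2 fold change (x axis, knockout minus control) of the 35 tested members (y axis, grouped by role); points are edgeR estimates and lines their 95% intervals over 3 libraries per group. The 10 red genes passed the test and all lie left of 0, while the 10 negative regulators, in grey, lie between -0.40 and 0.20.

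The roles differed in how many members were called. Among kinases 3 of 4 were lower, among STATs 3 of 5, among receptors 4 of 16 and among negative regulators 0 of 10, beside 13.5% of all genes. Median log2 fold changes were -0.93 for kinases, -0.55 for STATs, -0.35 for receptors and -0.08 for negative regulators. After a correction for transcript length and GC content, described with the length trend, they were -0.71, -0.25, -0.12 and 0.02 in the same order, so the median of the negative regulators changed sign. With that correction 3 kinases, 1 STAT, 5 receptors and 0 negative regulators were called lower. Summed over each role, kinase CPM went from 269 ± 21.3 to 192 ± 15.4 and STAT CPM from 297 ± 23.6 to 224 ± 12.9 (SD, n = 3). Every knockout library was below every control library in both sums. Negative regulators summed to 624 ± 39.7 CPM in control and 618 ± 32.0 in knockout, and receptors to 645 ± 36.5 and 587 ± 64.5, with overlapping groups in both. These sums are descriptions without a test, and the difference between roles was not tested.

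The Janus kinases each pair with particular receptor chains. JAK2 serves the GM-CSF, growth hormone and interferon gamma receptors, JAK3 the common gamma chain, TYK2 the type I interferon, interleukin 10 and interleukin 12 receptors, and JAK1 most of the family. Jak2 (GENCODE ENSMUSG00000024789.13, mm10 chromosome 19, 29251828 to 29313080) stood at 26.4, 29.6 and 31.2 CPM in control libraries 1, 2 and 3 and at 18.0, 13.8 and 13.7 in knockout libraries 1, 2 and 3. All knockout libraries were below all controls, with a log2 fold change of -0.94 (SE 0.16, adjusted p = 0.0049). The gene ends 54374 bases before the start of Cd274 on the same strand, so the kinase gene and the targeted gene are close neighbours. Whether this position bears on the level of Jak2 was not tested.

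Tyk2 (chromosome 9, 21104068 to 21131243) had a fold change near that of Jak2. Its levels were 46.4, 70.3 and 59.4 CPM in control and 39.0, 21.9 and 25.7 in knockout libraries 1, 2 and 3 (log2 fold change -1.03, SE 0.23, adjusted p = 0.0132). With the length and GC correction Tyk2 stood at -0.73 and Jak2 at -0.92. Knockout library 1 came near control library 1, and knockout libraries 2 and 3 were far lower. Jak3 (chromosome 8, 71676296 to 71690575) was even across controls, at 14.6, 14.99 and 14.2 CPM, and uneven across knockouts, at 10.6, 4.90 and 7.76 (-0.92, SE 0.25, adjusted p = 0.0273). Jak1, the most abundant kinase per length, at 23.01 ± 1.48 CPM per kb of exon in control, had 165, 178 and 157 CPM in control and 142, 143 and 135 in knockout. The Jak1 groups did not overlap either, but the change was small and did not pass the test (-0.25, SE 0.12, 95% interval -0.52 to 0.01, adjusted p = 0.142). Counts of Jak2 per 100 counts of Jak1 in the same library, a ratio that no scaling between libraries can move, were 16.0, 16.6 and 19.95 in control and 12.7, 9.68 and 10.2 in knockout libraries 1, 2 and 3. The coding sequence of Jak2 shared no stretch of 50 bases with those of Jak1, Jak3 and Tyk2 (0% in each), so coding reads of that length tell Jak2 from the other kinases. A gene annotated antisense to Tyk2 was listed at 0 reads, and Insl3, which overlaps Jak3 on the same strand, had at most 6.

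**Figure D2:**
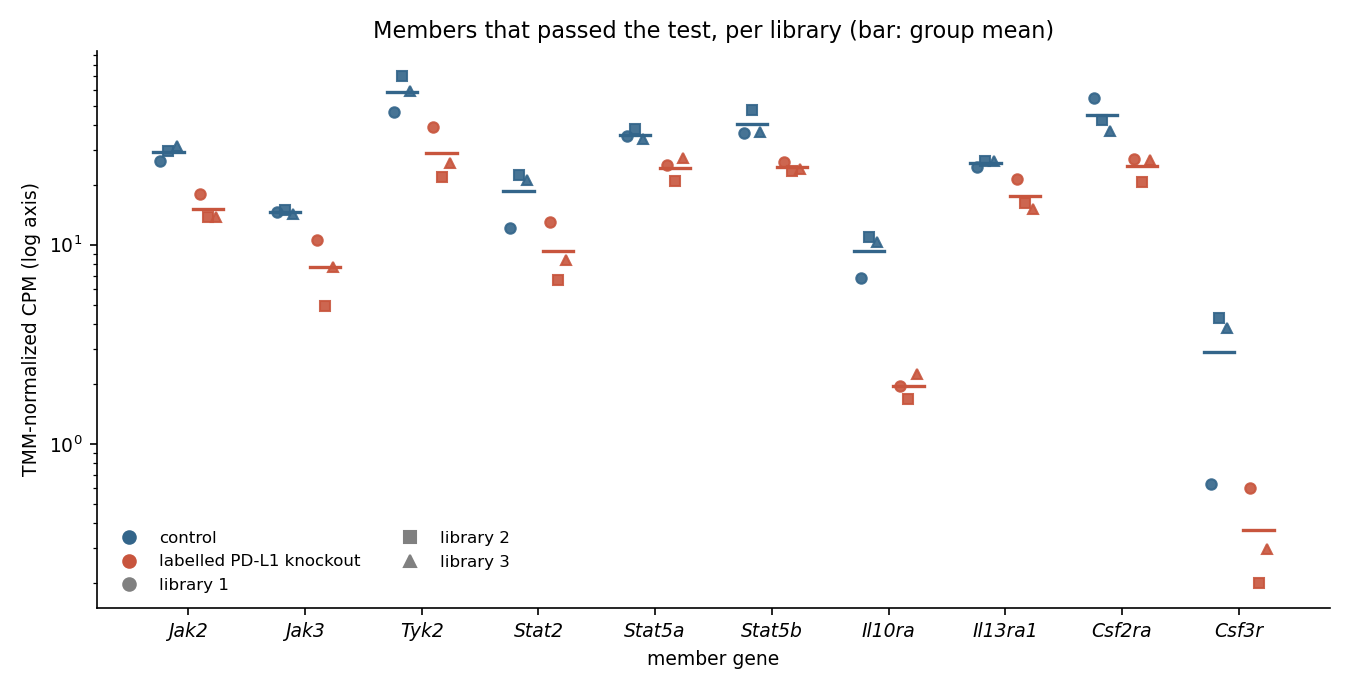
TMM-normalized CPM (y axis, log scale) of the 10 members that passed the test, with 1 point per library, marker shape giving the library number, and a bar at each group mean. Il10ra shows the widest separation of its groups (at least 6.80 CPM in control and at most 2.24 in knockout), Stat2 overlaps, and in Csf3r library 1 of both groups sits near 0.6 CPM.

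Of the STATs, STAT5A and STAT5B transmit GM-CSF and other growth factor signals, STAT2 joins the interferon-stimulated complex, STAT3 answers interleukins 6 and 10, and STAT6 interleukins 4 and 13. Stat5b (chromosome 11, 100780731 to 100850724) had 36.3, 47.6 and 37.0 CPM in control and 25.9, 23.4 and 24.0 in knockout libraries 1, 2 and 3 (log2 fold change -0.72, SE 0.15, adjusted p = 0.0103). Stat5a (chromosome 11, 100859351 to 100885169), its neighbour, had 35.0, 38.2 and 33.8 CPM in control and 25.1, 20.8 and 27.3 in knockout (-0.55, SE 0.15, adjusted p = 0.0247). Neither STAT5 gene had overlapping groups, and the ratio between them stayed similar, at 113 ± 10.8 counts of Stat5b per 100 of Stat5a in control and 101 ± 12.4 in knockout (SD, n = 3). The coding sequences of the pair are 90.8% identical over 2291 aligned bases, and 26.0% of all 50-base stretches of Stat5a occur unchanged in Stat5b, so some reads may have been split or dropped. The first 120 coding bases from GENCODE transcripts show the scale of the difference, with the 24 bases that differ in capitals.
Stat5a: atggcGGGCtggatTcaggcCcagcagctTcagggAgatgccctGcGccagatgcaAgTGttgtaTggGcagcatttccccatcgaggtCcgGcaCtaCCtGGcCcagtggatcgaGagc
Stat5b: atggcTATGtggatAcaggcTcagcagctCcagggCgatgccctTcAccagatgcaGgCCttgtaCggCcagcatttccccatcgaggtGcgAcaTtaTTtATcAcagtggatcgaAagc

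Stat2 (chromosome 10, 128270559 to 128292849) fell by 1.01 on the log2 scale (SE 0.29, adjusted p = 0.0321). It had 12.1, 22.5 and 21.2 CPM in control and 12.98, 6.65 and 8.41 in knockout libraries 1, 2 and 3. Its groups overlapped: control library 1 lay below knockout library 1, and the difference rested on libraries 2 and 3 of each group. Stat6, the most abundant STAT per length (26.5 ± 1.45 CPM per kb in control), had 117, 123 and 110.2 CPM in control and 105, 89.9 and 88.4 in knockout (-0.31, SE 0.13, adjusted p = 0.102). Stat3 had 83.6, 93.2 and 80.8 CPM in control and 67.7, 70.4 and 75.0 in knockout (-0.27, SE 0.12, adjusted p = 0.129). Neither passed the test, although the groups of both were apart. Stat3 and Stat5a overlap by 72 bases at their ends on opposite strands, where unstranded reads cannot be assigned. Stat4, the interleukin 12 STAT, was not tested, with 3 reads in control library 3 and 0 in the other libraries.

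Whether the members carry STAT-type binding motifs was examined in the 250 bases before each RefSeq start (GRCm38.p6). The gamma-activated site TTCNNNGAA, bound by STAT dimers, and the core of the interferon-stimulated response element (TTTC, any 2 bases, TTTC), bound by the complex with STAT2, were searched on both strands. Promoter windows were given for 33 members, 38 windows in all. The first motif was in 3 of the 38 (7.89%), those of Socs3, Ifnar2 and Csf2rb2, and in 7.02% of all 32851 windows. The second was also in 3 (7.89%), those of Stat2, Socs1 and Stat4, and in 2.98% of all windows. A match is a description of the letters only. The windows of Stat2, the called member with a match, and of the feedback gene Socs1 are given 5′ to 3′ on the strand of the gene, with the motif in capitals. They lie at chr10:128270248-128270497 on the plus strand for Stat2 and chr16:10785537-10785786 on the minus strand for Socs1, where 2 matches overlap.
Stat2: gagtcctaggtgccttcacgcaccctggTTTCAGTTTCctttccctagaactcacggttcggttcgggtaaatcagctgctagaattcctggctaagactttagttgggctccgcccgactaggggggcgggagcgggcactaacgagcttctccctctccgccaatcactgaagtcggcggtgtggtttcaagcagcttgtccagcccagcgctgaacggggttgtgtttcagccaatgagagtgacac
Socs1: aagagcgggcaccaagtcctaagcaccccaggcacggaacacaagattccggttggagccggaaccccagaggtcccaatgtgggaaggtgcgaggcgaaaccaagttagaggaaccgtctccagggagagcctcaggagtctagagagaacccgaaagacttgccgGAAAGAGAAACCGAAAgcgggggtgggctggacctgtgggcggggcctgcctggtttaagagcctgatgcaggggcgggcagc

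The negative regulators showed no call. SOCS1, SOCS3 and CISH, which STATs induce and which block the receptors or kinases, are often read as markers of ongoing pathway activity. Socs3, whose promoter window holds the STAT motif, had 7.07, 8.59 and 7.95 CPM in control and 8.38, 7.59 and 6.67 in knockout libraries 1, 2 and 3 (log2 fold change -0.07, 95% interval -0.51 to 0.38, adjusted p = 0.822). Cish, a STAT5 target, had 2.24, 3.91 and 5.07 CPM in control and 3.55, 2.69 and 2.84 in knockout (-0.33, 95% interval -1.07 to 0.41, adjusted p = 0.474). Both genes had overlapping groups. Socs1 was not tested: it had 0, 38 and 4 reads in control and 0, 0 and 1 in knockout libraries 1, 2 and 3. Nearly all reads of Socs1 came from control library 2, the library high in Col1a1 and Fn1, and a link with those genes was not tested. It was called lower where low counts were not filtered and by DESeq2.

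The other SOCS genes did not pass the test either. Socs2, which dampens growth hormone signalling, and Socs4, Socs5 and Socs6 had log2 fold changes of -0.19, -0.08, 0.19 and -0.06, with adjusted p between 0.364 and 0.802. Ptpn6 encodes SHP-1, the phosphatase of blood cells, and was the most abundant member of all per length, at 95.6 ± 14.6 CPM per kb in control. It had 221, 296 and 286 CPM in control and 251, 325 and 328 in knockout (0.17, 95% interval -0.19 to 0.53, adjusted p = 0.457), with overlapping groups. Ptpn2, which dephosphorylates JAK1, JAK3 and STATs, was at 38.7 ± 3.22 and 44.5 ± 7.81 CPM (0.20, adjusted p = 0.362). Ptpn11 encodes SHP-2, a phosphatase that also transmits growth signals, and had the most negative value of the role (-0.40, SE 0.18, adjusted p = 0.121), with 161, 138 and 111 CPM in control and 127, 90.7 and 92.9 in knockout. Pias1, a SUMO ligase that inhibits STATs, had 39.2, 48.4 and 51.3 CPM in control and 36.6, 37.9 and 38.3 in knockout (-0.30, adjusted p = 0.136). It was the only negative regulator whose groups did not overlap.

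Among receptors, the largest called change with ample reads was that of Il10ra, the ligand-binding chain for the anti-inflammatory cytokine interleukin 10. Il10ra (ENSMUSG00000032089.16, chromosome 9, 45253837 to 45269149) had 6.80, 10.9 and 10.3 CPM in control and 1.96, 1.68 and 2.24 in knockout libraries 1, 2 and 3. This is a log2 fold change of -2.25 (SE 0.27, adjusted p = 0.000969), or 4.75-fold lower, with every knockout library far below every control. Il10rb, the chain that interleukin 10 shares with other cytokines, had 14.2, 17.3 and 24.2 CPM in control and 23.6, 25.9 and 28.0 in knockout (0.47, SE 0.20, adjusted p = 0.102). Its groups overlapped and it did not pass the test. Within libraries there were 47.8, 63.0 and 42.6 counts of Il10ra per 100 of Il10rb in control and 8.31, 6.48 and 8.01 in knockout. Both chains are needed for a working receptor.

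The GM-CSF receptor joins a ligand-binding alpha chain, Csf2ra, to a signalling beta chain, Csf2rb. Csf2ra (chromosome 19, 61223957 to 61228429) had 54.6, 42.1 and 37.2 CPM in control and 26.9, 20.8 and 26.7 in knockout libraries 1, 2 and 3 (log2 fold change -0.84, SE 0.18, adjusted p = 0.0111). The groups were apart. Csf2rb had 73.9, 54.9 and 49.7 CPM in control and 54.5, 35.0 and 35.5 in knockout (-0.51, SE 0.21, adjusted p = 0.0977). Csf2rb2, the mouse-specific beta chain for interleukin 3, had 41.0, 26.2 and 23.6 CPM in control and 37.1, 16.5 and 15.3 in knockout (-0.40, SE 0.33, adjusted p = 0.398). Neither beta chain passed the test, and in both knockout library 1 lay above the lowest control. Without that library both were called lower, Csf2rb at -0.75 (adjusted p = 0.00418) and Csf2rb2 at -0.92 (adjusted p = 0.00567). Leaving out any other single library gave no call for either. Values then reached -0.33 for Csf2rb (adjusted p up to 0.284) and -0.12 for Csf2rb2 (adjusted p up to 0.832).

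The beta chain genes lie 20030 bases apart on chromosome 15, and their coding sequences are 95.2% identical over 2628 aligned bases. Of the 50-base stretches of Csf2rb2, 26.6% occur unchanged in Csf2rb. Reads from such stretches may have been split or dropped, so the separate levels of the pair are uncertain. Their first 120 coding bases, from GENCODE transcripts, differ at 4 positions, in capitals.
Csf2rb: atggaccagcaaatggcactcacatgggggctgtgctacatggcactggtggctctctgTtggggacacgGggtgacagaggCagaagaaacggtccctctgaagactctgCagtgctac
Csf2rb2: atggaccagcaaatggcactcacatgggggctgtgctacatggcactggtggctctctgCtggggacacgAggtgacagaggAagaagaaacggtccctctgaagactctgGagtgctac

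Csf3r, the receptor for the granulocyte growth factor G-CSF, had the most negative fold change of all members on few reads. It had 7, 72 and 96 reads in control and 8, 3 and 6 in knockout libraries 1, 2 and 3, or 0.63, 4.27 and 3.84 against 0.60, 0.20 and 0.30 CPM (log2 fold change -3.04, SE 0.69, adjusted p = 0.0141). Control library 1 was at the level of knockout library 1, so the change rested on control libraries 2 and 3. Il13ra1, which pairs with Il4ra in the receptor for interleukins 4 and 13, had 24.4, 26.2 and 26.4 CPM in control and 21.4, 16.3 and 15.1 in knockout (-0.55, SE 0.16, adjusted p = 0.0349). Il4ra had 15.3, 11.9 and 9.79 CPM in control and 9.74, 7.66 and 9.40 in knockout (-0.46, SE 0.21, adjusted p = 0.137). The Il4ra groups were apart by a narrow margin.

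The interferon receptor chains had fold changes on either side of 0, and none passed the test. Ifnar2, the high-affinity chain for type I interferon, had 27.0, 20.3 and 21.9 CPM in control and 42.1, 28.9 and 30.0 in knockout libraries 1, 2 and 3 (log2 fold change 0.55, SE 0.18, adjusted p = 0.0531). Ifnar1, its partner, was at 47.6 ± 4.48 and 42.7 ± 6.95 CPM (-0.16, adjusted p = 0.472). The Ifnar2 groups were apart and those of Ifnar1 overlapped. Ifngr2, the signalling chain for interferon gamma, had 50.8, 57.5 and 64.8 CPM in control and 68.4, 81.6 and 78.9 in knockout (0.40, SE 0.14, adjusted p = 0.0619). Ifngr1, the binding chain, had 26.7, 30.9 and 33.5 CPM in control and 25.1, 22.8 and 25.7 in knockout (-0.31, SE 0.14, adjusted p = 0.127). Ifngr2 was thus above every control and Ifngr1 below every control in all knockout libraries. Counts of Ifngr2 per 100 of Ifngr1 were 191, 186 and 193 in control and 273, 358 and 307 in knockout, and those of Ifnar2 per 100 of Ifnar1 were 56.1, 39.3 and 51.0 against 83.3, 77.8 and 74.4. No test was made of these ratios. DESeq2 called both Ifnar2 and Ifngr2 higher.

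Il10rb, Ifnar1, Ifnar2 and Ifngr2 lie within 1 stretch of chromosome 16, from 91372783 to 91565623. Il10rb starts 574 bases after the end of Ifnar2, and an annotated gene spanning parts of both (Gm21970) was listed at 0 reads. Chromosome 16 as a whole leaned upward, with a median of 0.24 over its 364 tested genes beside 0.01 for all genes, and its part in the values of these 4 receptors was not tested.

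**Figure D3:**
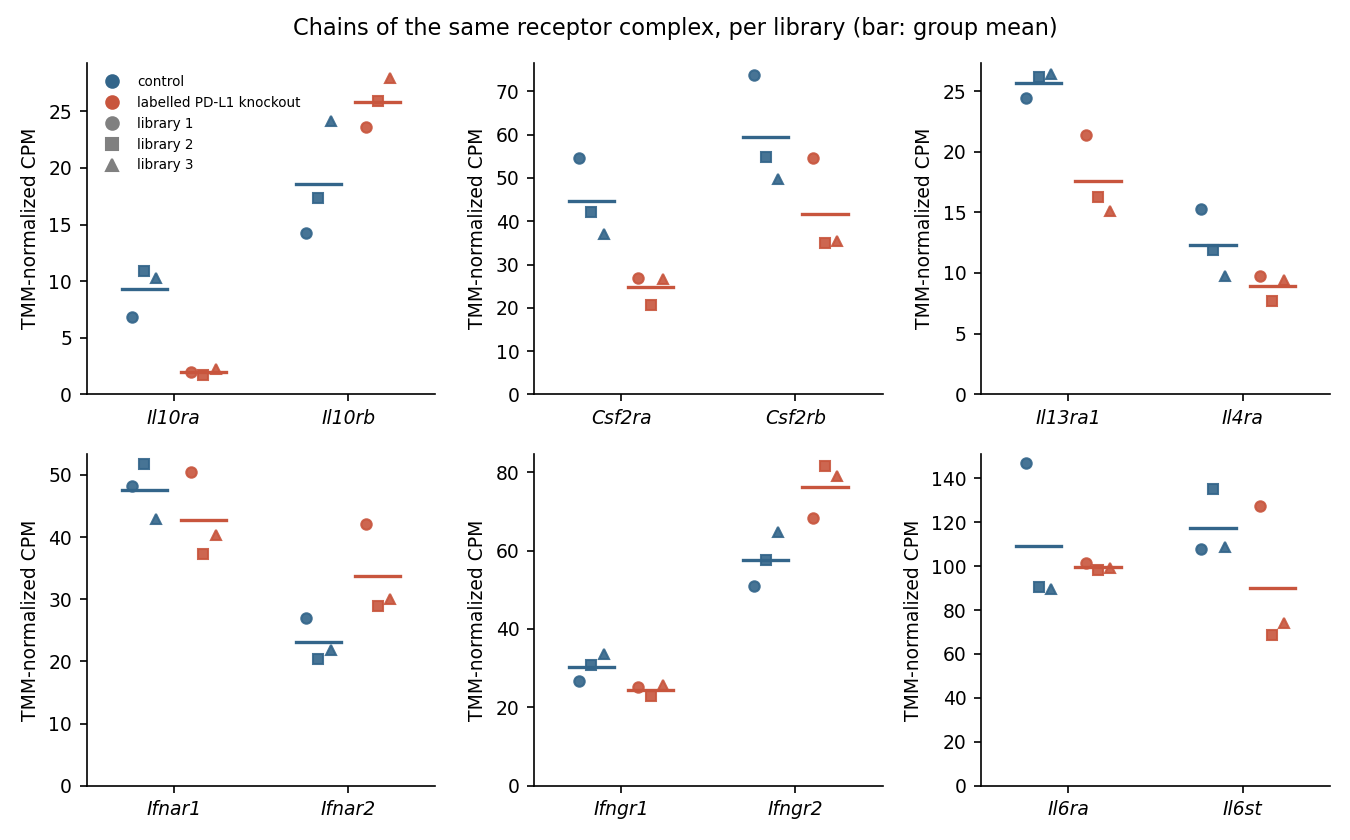
TMM-normalized CPM (y axis, from 0) of the chains of 6 receptors (x axis, 1 panel per receptor), with 1 point per library, marker shape giving the library number, and a bar at each group mean. Il10ra falls from a mean of 9.34 to 1.96 CPM while Il10rb goes from 18.6 to 25.8, and Ifngr1 and Ifngr2 lie on opposite sides of their controls.

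Of the remaining receptors, Il2rg, the common gamma chain used with JAK3, had 35.8, 45.4 and 54.6 CPM in control and 53.0, 62.7 and 75.5 in knockout libraries 1, 2 and 3 (log2 fold change 0.49, SE 0.19, adjusted p = 0.0777). Control library 3 lay above knockout library 1, so the groups overlapped, and the gene did not pass. Counts of Il2rg per 100 of Jak3 were 311 ± 69.6 in control and 918 ± 392 in knockout (SD, n = 3). Il6st, the shared gp130 chain of the interleukin 6 family, had 108, 135 and 109 CPM in control and 127, 68.8 and 74.0 in knockout (-0.38, adjusted p = 0.229). Without knockout library 1 it was called lower (-0.72, adjusted p = 0.00207). Leaving out any other single library gave no call, with values up to -0.22 (adjusted p up to 0.547). Il6ra, the interleukin 6 binding chain, was at 109 ± 32.8 and 99.6 ± 1.66 CPM (-0.13, adjusted p = 0.638), and Il15ra, which presents interleukin 15, at 11.3 ± 1.10 and 12.1 ± 2.72 (0.10, adjusted p = 0.743). Il6ra was set apart by control library 1 alone, at 147 CPM against 90.7 and 89.7. The leptin receptor Lepr had 2 reads and the interleukin 21 receptor Il21r had 5 in all control libraries, with 0 and 2 in knockout. The oncostatin M receptor Osmr had 0 reads in every library.

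Per length, the control cells held most Ptpn6 among the members, followed by Stat6 (26.5 ± 1.45 CPM per kb), Jak1 (23.01 ± 1.48), Il2rg (19.0 ± 3.94), Ptpn11 (18.2 ± 3.31), Csf2ra (15.5 ± 3.13), Ifngr2 (15.3 ± 1.85) and Il6ra (12.6 ± 3.80). From Jak1 to Il6ra the mean ± SD of each gene overlapped that of the next, while those of Ptpn6, Stat6 and Jak1 were apart from each other. In the libraries labelled knockout Il2rg stood at 26.7 CPM per kb and Csf2ra at 8.63.

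Transcript length moved with the fold changes. Across the 11414 tested genes with an annotated exon length, Spearman's rho between length and log2 fold change was -0.42, given as a description across genes, which are not independent replicates. The shortest 25% of genes had a median log2 fold change of 0.33 with 5.01% called lower, and the longest 25% -0.30 with 29.8%. The tested members were longer than most genes, with a median of 5.54 kb of exon beside 4.38 kb. Called members were not longer than the others, at 5.19 kb against 6.002 kb. With each library's trend with length and GC content removed, 9 members were lower and 0 higher, and the median of the tested members was -0.15 beside 0.04 for all genes. The share of all genes called in that fit is not given here, so the count of 9 is not compared with all genes. Jak2, Jak3, Tyk2, Stat5b, Il10ra, Il13ra1, Csf2ra and Csf3r kept their call, and Ifngr1 gained one (-0.48, adjusted p = 0.0338). Stat5a (-0.19, adjusted p = 0.284) and Stat2 (-0.87, adjusted p = 0.0513) lost theirs, which left 1 of 5 STATs.

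**Figure D4:**
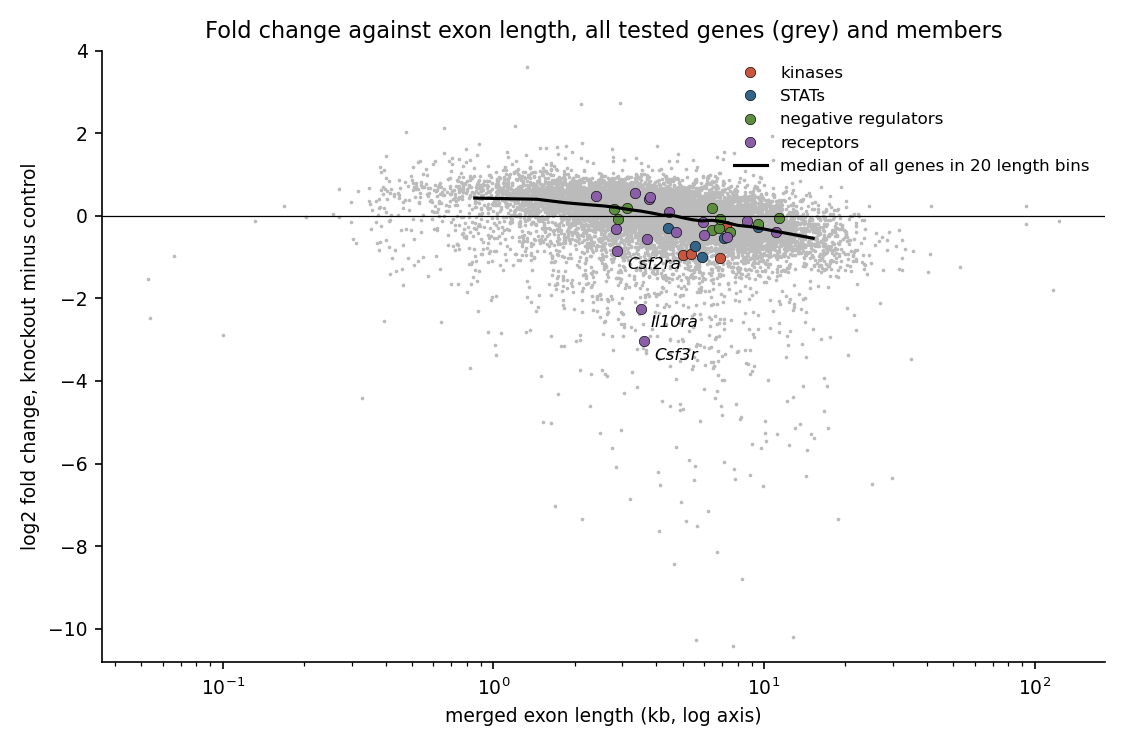
Log2 fold change (y axis, knockout minus control) against merged exon length (x axis, kb, log scale) for all tested genes in grey and members coloured by role; the black line is the median of all genes in 20 length bins. The line falls from above 0 for short genes to below 0 for long ones, and Il10ra (-2.25), Csf3r (-3.04) and Csf2ra (-0.84) lie well below it.

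Single libraries decided how many members were called. Without control library 2 the count fell from 10 to 3 (Jak2, Il10ra and Csf2ra), and over all genes from 2896 to 638. Without control library 1 it was 8, without control library 3 it was 6, without knockout library 2 it was 4 and without knockout library 3 it was 5. Without knockout library 1 it was 15, adding Stat6, Ptpn11, Il6st, Csf2rb and Csf2rb2, with Il2rg and Ifngr2 higher. Calls over all genes also differed widely between these settings, with their range given further below. The member counts are therefore not read as a result about the members. Jak2, Il10ra and Csf2ra were called in all 16 other settings tried, with Jak2 between -1.09 and -0.86, Il10ra between -2.42 and -2.12 and Csf2ra between -0.99 and -0.67. Stat5b lost its call only without control library 2 (-0.58, adjusted p = 0.0654). Jak3 lost its call without any 1 of 5 libraries and Il13ra1 likewise, the exception being knockout library 1 for both, while Tyk2 and Csf3r lost theirs without control library 2, knockout library 2 or knockout library 3. With the filter at 1 CPM in at least 3 libraries, Csf3r was not tested. Stat5a lost its call without control library 2 or 3 or knockout library 2, and Stat2 without those or knockout library 3. Their log2 fold changes stayed negative throughout.

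**Figure D5:**
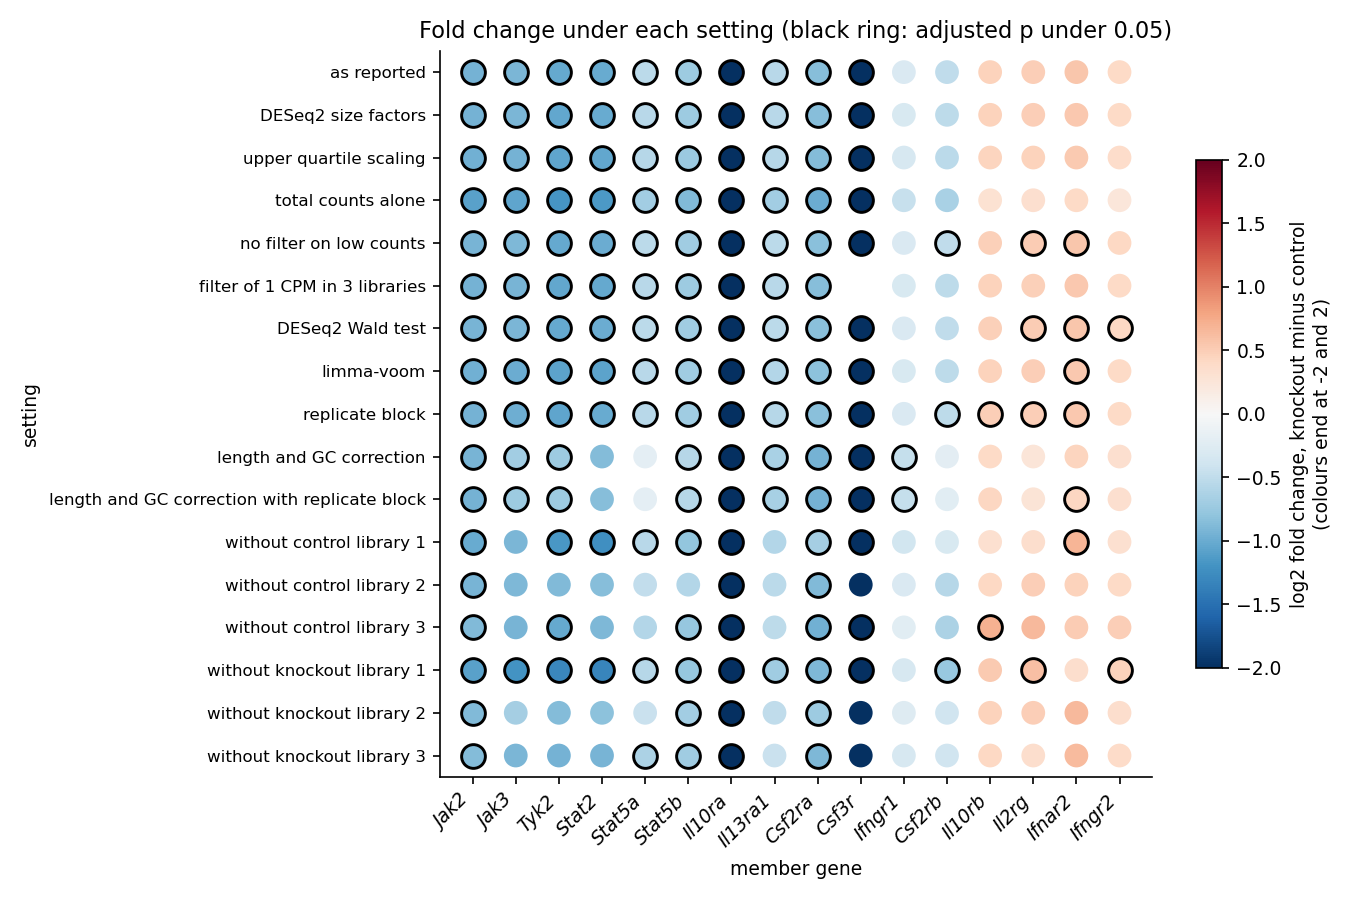
Log2 fold change (colour, knockout minus control) of 16 members (x axis) under the reported fit and 16 other settings (y axis); a black ring marks an adjusted p under 0.05. Il10ra, Jak2 and Csf2ra are ringed in every row, no other gene is ringed without control library 2, and rings on the red genes at the right appear in a minority of rows.

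The wider pathway was read from gene lists outside the members. Of 32 cytokine ligands 7 were tested, and 1 was lower, beside 13.5% of all genes, and 0 higher. Lower was Il27, a subunit of interleukin 27, at 0.79 ± 0.25 and 0.21 ± 0.06 CPM (log2 fold change -1.93, adjusted p = 0.024). The call was lost by DESeq2 and without control library 2 or 3 or knockout library 2 or 3 (adjusted p up to 0.117). With the filter at 1 CPM in at least 3 libraries, Il27 was not tested. The highest level of any ligand was 16.4 CPM, and 11 had no read at all. Of 24 other receptors that signal through JAKs, 6 were tested, 2 lower and 0 higher. Crlf2, the receptor chain for thymic stromal lymphopoietin, had 9.66, 5.93 and 4.44 CPM in control and 0.60, 0.34 and 0.40 in knockout libraries 1, 2 and 3 (-3.89, SE 0.42, adjusted p = 0.000536). Il12rb2, a chain of the interleukin 12 receptor, had 10.2, 7.59 and 6.11 CPM in control and 2.11, 0.40 and 0.75 in knockout (-2.90, SE 0.49, adjusted p = 0.00473). Both kept their call in all 16 other settings. Il31ra, named after its values were seen, had 50.2 CPM in control library 2 and at most 3.22 in any other, and was not called.

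Of 20 other regulators and adaptors, 19 were tested, 2 lower and 0 higher, a share of lower genes no larger than the 13.5% of all genes. Across the other settings 1 to 8 were lower, 8 with total counts alone and 5 without knockout library 1. Cbl, a ubiquitin ligase for activated receptors, had 169, 208 and 159 CPM in control and 89.8, 67.3 and 71.2 in knockout libraries 1, 2 and 3 (log2 fold change -1.23, SE 0.16, adjusted p = 0.00136). Pias3, an inhibitor of STAT3, was lower too (-0.69, SE 0.21, adjusted p = 0.0405), but the call was lost without any 1 library other than knockout library 1 (adjusted p up to 0.145), and with the length and GC correction and block together. Genes widely known as STAT targets went both ways: of 24 tested, 4 were higher and 3 lower, with a median of 0.29. These shares are near those of all genes, 11.8% higher and 13.5% lower. Pim1, a survival kinase, rose from 19.5 ± 4.999 to 39.5 ± 8.44 CPM (1.01, SE 0.22, adjusted p = 0.0127), and Cebpb, a myeloid transcription factor, from 65.3 ± 7.98 to 98.9 ± 8.44 (0.60, SE 0.14, adjusted p = 0.0157). The adhesion molecule Icam1 fell from 45.8 ± 1.10 to 23.3 ± 4.35 CPM (-0.98, SE 0.16, adjusted p = 0.00405). The list had 7 higher and 3 lower by DESeq2, 9 and 3 without knockout library 1, 2 and 1 without knockout library 3, and 1 and 1 without control library 2 or knockout library 2. Pim1 and Icam1 were called in all 16 other settings, while Cebpb lost its call when either control library 2 (adjusted p = 0.0921) or its knockout counterpart of the same number (adjusted p = 0.0654) was left out. After the length and GC correction Cebpb was not called either (0.32, adjusted p = 0.0776).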

How the data were processed

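RNA-seq of 6 DC2.4 libraries, 3 labelled Control and 3 labelled PD-L1 knockout, was analysed from the whole-number read counts per gene that the authors deposited. The submitters' processing notes name Trimmomatic 0.39, STAR 2.7.5c, StringTie 2.1.7 and the mm10 build, without roles. For the counting step, annotation release, strand setting and read length, the sources used here give nothing. Libraries held 10918498 to 23250065 counts.

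The 40 members and the other gene lists were chosen with earlier results of these data known. All 31205 genes entered 1 fit in edgeR 4.0.16 (R 4.3.3): filterByExpr left 11453 genes, library sizes were scaled by TMM, and the quasi-likelihood F test was adjusted by Benjamini-Hochberg over all genes tested, with a threshold of 0.05. CPM use TMM library sizes, log2 fold changes are signed as knockout minus control, while SDs and intervals (95%) cover 3 libraries per group. The biological coefficient of variation was 17.5%. All members are accounted for. Values per library go to members that passed the test, to the most abundant of each role per length, and to paralogs, partner chains and kinases of called members. Per-library values of Socs1, Socs3, Cish, Pias1, Ptpn11 and Stat3 were added after the values were seen. From each other list up to 3 called genes with the lowest adjusted p are named.

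On simulated counts (11317 genes tested, 200 changed) the test called 73% of genes changed by a log2 fold of 1 and 97.0% of those changed by 2, with 5.59% false calls. The simulated counts held no length trend and no library high in Col1a1 and Fn1, and far fewer genes changed than were called here. Those rates therefore need not hold for the real libraries. Symbols were matched to GENCODE M21 (mm10), 30194 directly and 343 through another symbol. Coordinates, exon lengths and coding sequences come from it, and promoters from RefSeq GRCm38.p6. Within each group, no pair of libraries was identical or within sampling noise, and pairs across groups were not compared. Alternatives were other scalings, no filter on low counts or one at 1 CPM in at least 3 libraries, limma-voom 3.58.1, DESeq2 1.42.0, the replicate number as a block, a loess correction for length and GC (span 0.3), and leaving out each library.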

Additional observations from a re-analysis of the deposited data

How the results depend on the processing

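Jak2, Il10ra and Csf2ra kept their call in all 16 other settings. Leaving out 1 library at a time gave 3 to 15 members lower and 0 to 2 higher, with 1 to 3 kinases, 0 to 4 STATs, 0 to 1 negative regulators and 2 to 7 receptors lower. Over all genes it gave 638 to 4962 calls, 166 to 2346 higher and 472 to 2616 lower. Members called higher numbered 2 without the filter on low counts (Il2rg and Ifnar2), 3 by DESeq2 (with Ifngr2) and 1 by limma-voom (Ifnar2). Socs1 was the 1 negative regulator called lower without the filter and by DESeq2. Scaling by total counts alone moved the median of all genes to -0.14. It gave 667 genes higher and 2212 lower, 5 STATs lower, and log2 differences of summed CPM of -0.64 for kinases, -0.56 for STATs, -0.17 for negative regulators and -0.29 for receptors, against -0.49, -0.41, -0.01 and -0.14 with TMM. With the length and GC correction 1 STAT was lower. The cause of these shifts was not tested.

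Library numbers matched the groups only in part: deviations of same-numbered libraries correlated at 0.15, -0.06 and 0.36. Control library 1 correlated best with knockout library 1 and control library 3 with knockout library 3. Control library 2 did not follow its number and correlated best with knockout library 1 (0.14). With the replicate number as a block 11 members were lower and 3 higher (Il10rb, Il2rg and Ifnar2). With both the block and the length and GC correction, 9 were lower, 1 of them a STAT, and 1 was higher.

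Signs turned for 8 genes, none of which passed the test as reported. With the length and GC correction, Stat3 stood at 0.15, Socs2 at 0.10, Socs4 at 0.0018, Socs6 at 0.23, Il6ra at 0.21 and Il6st at 0.0061. With the block added, Stat3 was 0.14, Socs2 0.083, Socs6 0.23 and Il6ra 0.24. Leaving out 1 library at a time gave -0.155 to 0.023 for Socs3, -0.161 to 0.056 for Socs4, -0.167 to 0.031 for Socs6, -0.251 to 0.146 for Il6ra and -0.103 to 0.204 for Il15ra. Scaling by total counts gave Il15ra -0.053. Stat4, Lepr and Il21r had at most 5 reads over a group and Osmr none, so no difference was detectable in them at this depth.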
